A study of Mus musculus with 12 samples.

Results

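Fkbp5, Tsc22d3, Klf9, Per1, Dusp1 and Nr3c1 are 6 of the 54232 genes counted in macrophages exposed to medium from neuroblastoma cells. The first 5 are textbook targets that glucocorticoids induce, and Nr3c1 encodes the glucocorticoid receptor itself. They were matched to the table by symbol and Ensembl ID, and all 6 were among the 16281 genes with enough reads to test. They were picked because earlier results of these data showed several of them higher with medium from NB9464 cells than with medium from NBT3L cells. That difference is therefore how they were chosen, and it is described here without a test.

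The glucocorticoid receptor is a ligand-activated transcription factor that waits in the cytoplasm in a complex with HSP90 and its co-chaperones. When it binds a steroid such as corticosterone, the main glucocorticoid of mice, it moves to the nucleus and binds DNA at repeats of the hexamer AGAACA facing each other. In macrophages it raises a set of anti-inflammatory and metabolic genes and lowers many cytokine genes. FKBP5, a co-chaperone of HSP90, lowers the affinity of the receptor for steroid and so closes a feedback loop. TSC22D3, also known as GILZ, restrains NF-kB and AP-1. KLF9 is a zinc finger repressor, PER1 is a repressor of the circadian clock, and DUSP1 removes phosphate from the MAP kinases p38 and JNK. Several of these genes also answer to other inputs: Dusp1 and Per1 are induced by cAMP and stress signals, and Klf9 and Tsc22d3 by other pathways.

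Bone marrow derived macrophages (BMDMs) of wild type C57BL/6 mice were grown for 5 days and then kept for 24 h under 1 of 6 conditions, with 2 libraries each. The conditions were no addition (NS), tumor-conditioned medium (TCM) of NB9464 or of NBT3L cells, R788 alone, and each TCM with R788. NB9464 is a mouse neuroblastoma line with MYCN amplification. The study's paper does not describe NBT3L, the other line, or its MYCN status. R788, also called fostamatinib, inhibits the tyrosine kinase Syk and was used at 500 nM. NB9464 TCM was collected over 48 h in DMEM without serum. The study's methods describe growth of BMDMs in RPMI with fetal bovine serum and the growth factor M-CSF. The sources used here do not say how NBT3L TCM was made or what vehicle R788 came in. They also do not say which base medium the cells without TCM received in the 24 h, or whether it held serum (a source of steroid). A difference between TCM and NS therefore cannot be told apart from one in base medium or serum. The same holds for a difference between NB9464 TCM and NBT3L TCM, which may also differ in the time of collection. The study compared these groups to see how factors from each tumor line and Syk inhibition change the state of macrophages.

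Total counts were between 44977847 and 56449685 per library, and between 16149 and 18343 genes had a count. Replicates differed, over 11500 genes, with an SD of 0.293 to 0.331 on the log2 scale in 5 pairs and of 0.469 in the R788 pair, in which library SJ8 also had the fewest genes with a count. The members, the list counts and the named genes of R788 alone are therefore also given without SJ8. All 8 macrophage markers were expressed, and together they took between 3.42% and 4.90% of counts. The summed level of 8 neuroblastoma markers was between 3.64 and 144 normalized counts, with Th and Chga at 0 in all libraries. It was between 3.64 and 41.5 without TCM and between 74.2 and 144 with TCM. That of 5 neutrophil markers, nearly all S100a8 and S100a9, was between 2362 and 4101 without TCM and between 6601 and 9979 with TCM. That of 4 fibroblast markers, all expressed, moved with R788: it was between 1106 and 1354 in NS and between 2340 and 2762 with R788 alone, between 1259 and 1291 with NB9464 TCM and between 1611 and 1936 with R788 added, and between 1383 and 1702 with NBT3L TCM and between 2793 and 2837 with R788 added. That of 7 lymphoid markers (5 with any count) was between 28.4 and 51.7 in NS, between 61.5 and 105 with R788 alone and between 4.02 and 29.7 with TCM, and that of 4 dendritic cell markers (Siglech at 0) was between 25.4 and 33.5 without TCM and between 34.4 and 89.0 with TCM. The part of these cells in the results was not tested.

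The bases just upstream of the annotated starts are shown because these genes share an inducer, and their sequences show which of its letters and of the other inputs they carry near the start. RefSeq (build GRCm38.p6) had promoters for 5 of the 6 genes. Only the stretch outside annotated exons is printed, 5′ to 3′ on the strand of the gene, with matches to the motifs searched in capitals. Those motifs, read on both strands without overlap between them, were the receptor hexamer (AGAACA or TGTTCT), the palindrome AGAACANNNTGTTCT, the clock E-box CACGTG and the cAMP response element TGACGTCA. The windows are Fkbp5 chr17:28486150-28486399 (minus strand), the most upstream of 3 starts of Tsc22d3 chrX:140600660-140600772 (minus), Klf9 chr19:23140976-23141225 (plus), the more upstream of 2 starts of Per1 chr11:69098699-69098947 (plus) and Dusp1 chr17:26508520-26508722 (minus).
Fkbp5: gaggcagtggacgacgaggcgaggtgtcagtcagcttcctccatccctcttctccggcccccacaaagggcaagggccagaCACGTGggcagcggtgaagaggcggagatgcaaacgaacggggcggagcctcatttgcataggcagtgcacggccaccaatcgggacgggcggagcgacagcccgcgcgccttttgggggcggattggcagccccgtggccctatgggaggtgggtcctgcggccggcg
Tsc22d3: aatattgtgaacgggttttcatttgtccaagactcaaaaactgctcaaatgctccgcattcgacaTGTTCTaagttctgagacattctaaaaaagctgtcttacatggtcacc
Klf9: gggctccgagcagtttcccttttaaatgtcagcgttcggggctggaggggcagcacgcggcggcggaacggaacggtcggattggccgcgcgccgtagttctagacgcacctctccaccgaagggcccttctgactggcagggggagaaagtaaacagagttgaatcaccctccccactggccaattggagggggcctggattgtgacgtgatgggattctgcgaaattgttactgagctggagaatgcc
Per1: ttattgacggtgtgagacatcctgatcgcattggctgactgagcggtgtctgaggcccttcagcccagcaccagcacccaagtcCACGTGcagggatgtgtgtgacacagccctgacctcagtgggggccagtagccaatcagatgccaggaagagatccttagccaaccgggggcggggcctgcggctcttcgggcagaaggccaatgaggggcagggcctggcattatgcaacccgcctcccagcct
Dusp1: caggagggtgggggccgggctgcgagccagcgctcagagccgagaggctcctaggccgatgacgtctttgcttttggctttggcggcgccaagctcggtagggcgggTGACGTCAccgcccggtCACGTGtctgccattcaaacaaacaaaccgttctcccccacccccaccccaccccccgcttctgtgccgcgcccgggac
Over the 250 bases before the start, the E-box was present in Fkbp5 from -169 to -164, in Per1 from -166 to -161 and in Dusp1 from -126 to -121, and 6.02% of 32851 promoters held it. Dusp1 also carried TGACGTCA from -143 to -136, found in 1.55% of promoters. The hexamer TGTTCT stood in Tsc22d3 from -185 to -180, and 16.1% of promoters held it in either orientation. The full palindrome was in 3 of the 32851 promoters and in none of the windows of these 5 genes. No match of any of the 4 motifs was found in the Klf9 window or in the windows of Tsc22d3 and Per1 that are not printed. The shares are counted per window, and a gene with several starts has several windows. A match here is a run of letters and not a measured binding site. A window without a match does not show that a gene lacks a site, since sequence outside these 250 bases was not searched.

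Fkbp5 (ENSMUSG00000024222, chromosome 17, 28399094 to 28517527, GRCm38) was ordered by medium more than by R788. Normalized counts, which are counts divided by the size factor of the library, were 2390 and 2420 in NS, 3295 and 3554 with NB9464 TCM, and 1357 and 1357 with NBT3L TCM. R788 alone gave 1541 and 1696, NB9464 TCM + R788 4778 and 5166, and NBT3L TCM + R788 976 and 941. No group overlapped its neighbour in this order, and the highest mean was 5.19 times the lowest. R788 went with a higher level in NB9464 TCM and a lower level both in NBT3L TCM and without TCM.

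Tsc22d3 (ENSMUSG00000031431, chromosome X, 140539528 to 140600659) was highest with R788 alone, at 5710 and 6255 normalized counts. The next group was NB9464 TCM + R788 with 4005 and 4053, then NS with 3245 and 3330 and NB9464 TCM with 2900 and 2760. Both groups with NBT3L TCM stood far below, at 929 and 1007 without R788 and 1032 and 1048 with it. Neighbouring groups did not overlap, but the gap between the NBT3L TCM groups, 71.4, was close to the sum of their SDs, 66.6.

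Klf9 (ENSMUSG00000033863, chromosome 19, 23141226 to 23168134) had the fewest reads of the 6 genes and the widest range, 10.6-fold between the highest and the lowest group mean. It had 143 and 198 normalized counts in NS, 555 and 416 with NB9464 TCM, and 101 and 47.6 with NBT3L TCM. With R788 alone it had 319 and 378, with NB9464 TCM + R788 650 and 574, and with NBT3L TCM + R788 76.3 and 39.2. Only the NBT3L TCM groups overlapped among neighbours, and in both of them the SD (38.1 and 26.3) was large beside the mean (74.6 and 57.8). The gap between NB9464 TCM + R788 and NB9464 TCM, 126, was below the sum of their SDs, 151. That between NB9464 TCM and R788 alone, 137, was just below theirs, 139. The gaps from R788 alone to NS and from NS to NBT3L TCM were above theirs.

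Per1 (ENSMUSG00000020893, chromosome 11, 69095217 to 69109960) split the libraries into those with NB9464 TCM and the rest. It had 3215 and 3054 normalized counts with NB9464 TCM and 3537 and 3333 with NB9464 TCM + R788. In the other 8 libraries it lay between 1114 and 1985, where NS, NBT3L TCM + R788 and R788 overlapped as neighbours.

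Dusp1 (ENSMUSG00000024190, chromosome 17, 26505590 to 26562128) was the one member that was lower with R788 in every medium. NS had 2729 and 3011 normalized counts and R788 1419 and 1409. With NB9464 TCM it had 5021 and 5249, and with R788 added 4105 and 3727. With NBT3L TCM it had 3334 and 3175, and with R788 added 2026 and 2022. The 6 groups did not overlap. Its exons overlap those of Ergic1 on the opposite strand, and whether the counting used the strand is not given in the sources used here.

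Nr3c1 (ENSMUSG00000024431, on chromosome 18), the receptor, varied least, 1.46-fold between the highest and the lowest group mean. Its normalized counts were between 3192 in NBT3L TCM + R788 and 5039 in R788, the library SJ8. The NB9464 TCM group (3742 and 3299) overlapped both NBT3L TCM (3436 and 3542) and NB9464 TCM + R788 (3572 and 3755). NS had 4223 and 3830.

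**Figure D1:**
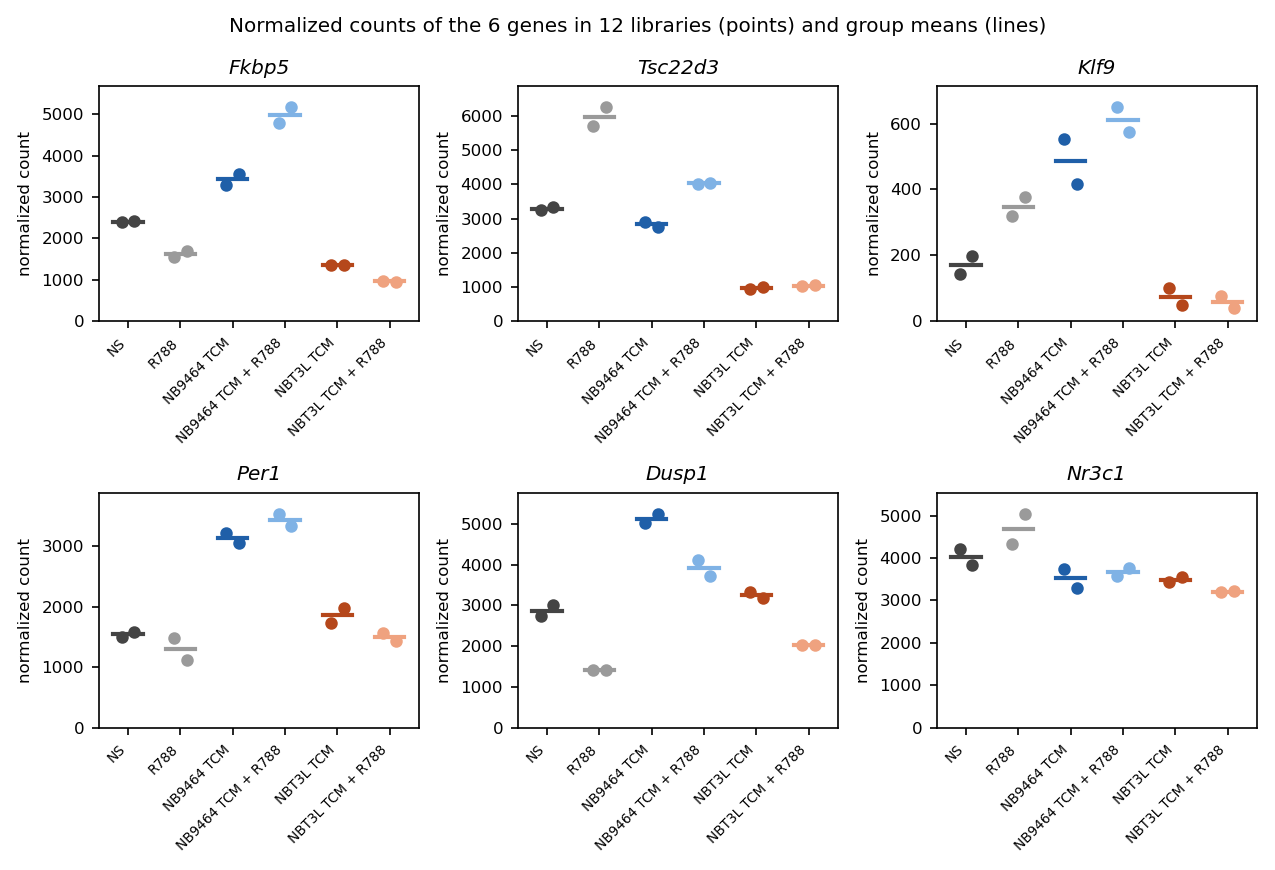
Normalized counts (y axis, from 0) of each of the 6 genes in the 12 libraries (points) by group (x axis), with lines at the group means of 2 libraries. Fkbp5 and Klf9 were highest with NB9464 TCM + R788 and lowest with NBT3L TCM + R788, and Nr3c1 stayed between 3192 and 5039.

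Levels of different genes were compared per length, as TPM (a share of the library corrected for gene length) computed from the counts and gene lengths. In NS, Dusp1 was the most abundant of the 6 at 67.7 ± 3.21 TPM (SD, n = 2), followed by Tsc22d3 at 48.2 ± 0.178 and Nr3c1 at 34.6 ± 3.14. Fkbp5 had 24.1 ± 0.321, Per1 17.4 ± 0.277 and Klf9 3.32 ± 0.692 TPM. In NB9464 TCM + R788 Fkbp5 reached 39.7 ± 3.54 TPM, while in NBT3L TCM + R788 it had 7.32 ± 0.216. The summed normalized counts were 1.09 times those of NS with NB9464 TCM and 1.17 times with NBT3L TCM. For Per1 and Dusp1 in NBT3L TCM the scales differed in sign against NS: their normalized counts were higher than in NS, at 16.0 ± 1.51 and 58.5 ± 2.07 TPM their shares were lower, and neither difference in normalized counts passed the test below.

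NB9464 TCM raised 4 of the 6 genes over NS. The choice of the genes used these NB9464 TCM libraries and favored high values in them, so the p-values against NS are not independent of the choice. Klf9 rose 2.85-fold (log2 fold change 1.51 ± 0.34 SE, adjusted p = 4.57e-05), Per1 2.03-fold (1.02 ± 0.13, adjusted p = 1.02e-14) and Dusp1 1.79-fold (0.84 ± 0.086, adjusted p = 3.62e-21). Fkbp5 rose 1.42-fold (0.51 ± 0.092, adjusted p = 2.25e-07). Tsc22d3 fell 1.16-fold (-0.22 ± 0.085, adjusted p = 0.0327), and Nr3c1 had -0.19 ± 0.096 with an adjusted p of 0.107. These p-values are from DESeq2 with Benjamini-Hochberg adjustment over all genes tested, with a threshold of 0.05, in 2 libraries per group, and since the labels do not say that libraries came from separate animals or cultures, they may measure technical spread only. Of all genes tested 34.1% were called in this comparison, 17.2% higher and 16.9% lower. The Tsc22d3 call was lost in a fit of only the libraries compared and without any 1 of the libraries of NS, NB9464 TCM and NB9464 TCM + R788 or SJ12 (adjusted p between 0.0186 and 0.232 over all alternatives, log2 fold change between -0.25 and -0.18), and Nr3c1 was called without SJ3 (-0.29, adjusted p = 0.0396) or SJ8 (-0.20, adjusted p = 0.0441).

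NBT3L TCM lowered 3 of the 6 genes and raised none. Here too the choice of the genes used the TCM libraries, and it favored low values in NBT3L TCM, so these p-values are not independent of it. Tsc22d3 fell 3.39-fold against NS (log2 fold change -1.76 ± 0.090, DESeq2 adjusted p = 3.57e-84), Klf9 2.30-fold (-1.20 ± 0.36, adjusted p = 0.00315) and Fkbp5 1.77-fold (-0.83 ± 0.095, adjusted p = 6.23e-17). Per1 had 0.27 ± 0.13 (adjusted p = 0.0878), Dusp1 0.18 ± 0.087 (adjusted p = 0.0939) and Nr3c1 -0.21 ± 0.096 (adjusted p = 0.0804). Among all genes tested 35.3% were called, 18.0% higher and 17.3% lower. The Klf9 call was lost without SJ2 (-0.95, adjusted p = 0.0811) or SJ6 (-0.75, adjusted p = 0.145), where its adjusted p ranged from 9.58e-05 to 0.145 over the alternatives. Per1 was called without SJ7 or SJ8 (0.27 in both) and in a fit of only the libraries compared (0.28), with adjusted p between 0.0211 and 0.488 over its alternatives, and Nr3c1 without SJ7 or SJ8 (-0.21 in both) and with TMM scaling (-0.23), with adjusted p between 0.0286 and 0.444.

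**Figure D2:**
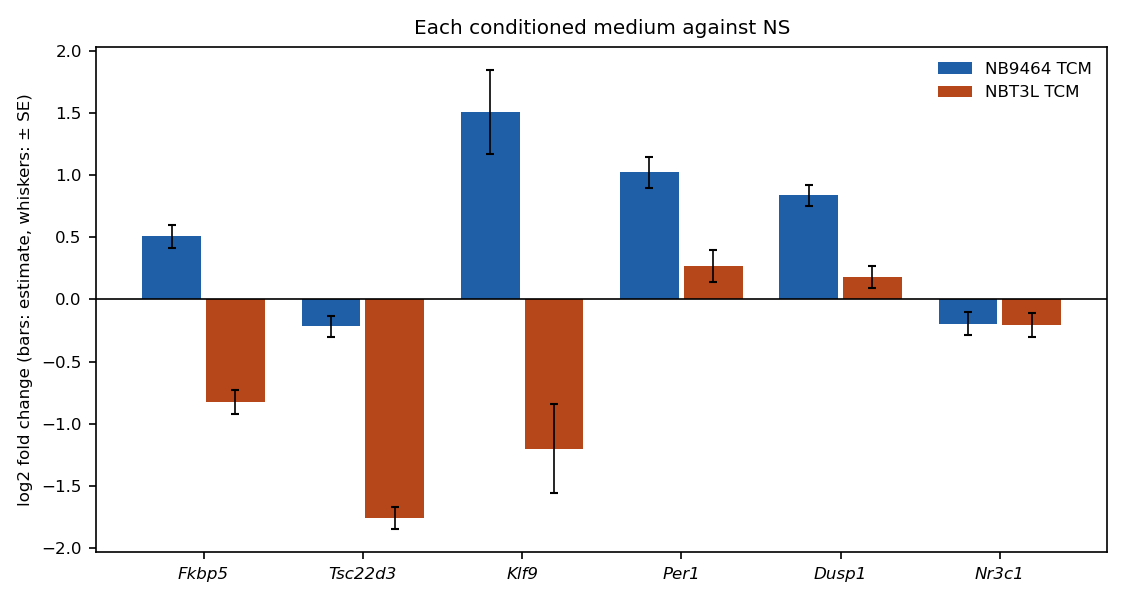
DESeq2 log2 fold changes (bars, y axis) with SE (whiskers) of the 6 genes in NB9464 TCM and NBT3L TCM against NS, 2 libraries per group. Fkbp5 and Klf9 point up in NB9464 TCM and down in NBT3L TCM, and the comparisons share the NS libraries.

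R788 alone moved the genes in both directions. Tsc22d3 rose 1.82-fold against NS (log2 fold change 0.86 ± 0.083, DESeq2 adjusted p = 1.96e-23) and Klf9 2.04-fold (1.03 ± 0.34, adjusted p = 0.0107), while Dusp1 fell 2.03-fold (-1.02 ± 0.089, adjusted p = 8.52e-29) and Fkbp5 1.49-fold (-0.57 ± 0.094, adjusted p = 1.60e-08). Per1 had -0.25 ± 0.13 (adjusted p = 0.137) and Nr3c1 0.22 ± 0.095 (adjusted p = 0.0693). In this comparison 26.6% of all genes tested were called, 11.6% higher and 15.0% lower. Without SJ8, Tsc22d3 had 0.80, Dusp1 -1.02 and Fkbp5 -0.64, all still called, whereas Klf9 had 0.90 and lost its call (adjusted p = 0.0804), and Per1 had -0.062 and Nr3c1 0.10. The fibroblast and lymphoid markers were also higher with R788 alone than in NS, by the sums given above, and their part was not tested. Klf9 was also not called without SJ1 (0.81, adjusted p = 0.145, the highest of a range from 0.00423). Without SJ7, Per1 was called at -0.47 (adjusted p = 0.00109, in a range up to 0.769) and Nr3c1 at 0.33 (adjusted p = 0.00559, in a range up to 0.502).

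In NB9464 TCM, R788 raised Tsc22d3 1.42-fold (log2 fold change 0.51 ± 0.084, DESeq2 adjusted p = 5.01e-08) and lowered Dusp1 1.31-fold (-0.39 ± 0.086, adjusted p = 9.06e-05). Klf9 had 0.33 ± 0.33 (95% interval from -0.32 to 0.99), Per1 0.13 ± 0.13 (-0.11 to 0.38) and Nr3c1 0.06 ± 0.096 (-0.13 to 0.25), and none of these was called. Fkbp5 was singled out for its response to R788 in TCM, so its 1.45-fold higher level (0.54 ± 0.091) is a description. The choice of the other members used these libraries too, so their p-values are not independent of it. Here 14.5% of all genes tested were called, 5.79% higher and 8.70% lower.

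In NBT3L TCM, Dusp1 was the only tested member called, 1.61-fold lower with R788 (log2 fold change -0.68 ± 0.088, DESeq2 adjusted p = 5.55e-13). Tsc22d3 had 0.10 ± 0.094 (95% interval from -0.08 to 0.29), Klf9 -0.36 ± 0.38 (-1.10 to 0.37) and Nr3c1 -0.12 ± 0.096 (-0.31 to 0.07). Per1 had -0.31 ± 0.13 with an adjusted p of 0.0824, and it was called without SJ7 or SJ8 (-0.31 and -0.32) and in a fit of only the libraries compared (-0.31), with adjusted p between 0.00784 and 0.556 over its alternatives. Fkbp5, again as a description, was 1.42-fold lower (-0.50 ± 0.099). For the other members the p-values are again not independent of the choice, which used these libraries. Of all genes tested 12.6% were called, 5.33% higher and 7.24% lower.

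**Figure D3:**
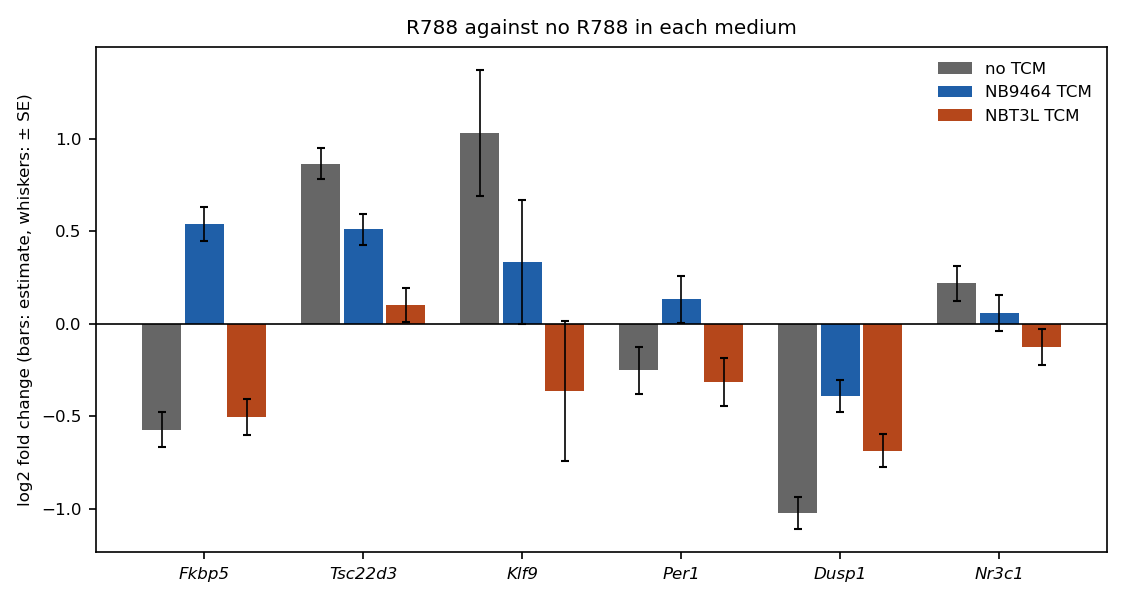
DESeq2 log2 fold changes (bars, y axis) with SE (whiskers) of R788 against no R788 for the 6 genes in each medium (none, NB9464 TCM, NBT3L TCM), 2 libraries per group. Dusp1 points down in all 3 media, and Fkbp5 points up in NB9464 TCM and down in the other 2.

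Whether the response to R788 itself depended on the medium was tested as an interaction, the difference between 2 responses. The response of Tsc22d3 was smaller in NBT3L TCM than without TCM (difference -0.76 ± 0.13 on the log2 scale, DESeq2 adjusted p = 6.61e-08) and smaller in NB9464 TCM than without TCM (-0.35 ± 0.12, adjusted p = 0.0227). That of Klf9 was lower in NBT3L TCM (-1.39 ± 0.51, adjusted p = 0.0460), and that of Dusp1 was less negative in NB9464 TCM (0.63 ± 0.12, adjusted p = 9.56e-06). Against no TCM, Klf9 in NB9464 TCM (-0.70 ± 0.48, adjusted p = 0.367), Per1 in NB9464 TCM (0.38 ± 0.18, adjusted p = 0.139) and in NBT3L TCM (-0.06 ± 0.18, adjusted p = 0.891) and Dusp1 in NBT3L TCM (0.34 ± 0.13, adjusted p = 0.0535) were not called. Neither were the differences of Nr3c1, -0.16 ± 0.14 (adjusted p = 0.491) and -0.34 ± 0.14 (adjusted p = 0.0766). Over all genes tested, the response in NB9464 TCM was called different from that without TCM for 12.5%, 6.22% higher and 6.26% lower, and the response in NBT3L TCM for 10.1%, 5.17% higher and 4.96% lower. Both share the libraries of NS and R788. The choice of the members used the TCM libraries with and without R788, so the p-values of their interactions are not independent of it. Without SJ8, Tsc22d3 had -0.70 in NBT3L TCM, still called, and -0.29 in NB9464 TCM, no longer called (adjusted p = 0.109), Klf9 had -1.27 (adjusted p = 0.127) and Dusp1 stayed called at 0.63. The Tsc22d3 difference in NB9464 TCM was lost in 7 alternatives (edgeR and without SJ1, SJ2, SJ3, SJ8, SJ9 or SJ10, adjusted p from 0.00683 to 0.139) and the Klf9 difference in 11 (edgeR, only the libraries compared, counts divided by 2 and without SJ1, SJ3, SJ4, SJ5, SJ8, SJ9, SJ10 or SJ12, adjusted p from 0.00606 to 0.458), while Per1 in NB9464 TCM (0.60 without SJ7), Dusp1 in NBT3L TCM (0.41 without SJ1, 0.35 with TMM scaling) and Nr3c1 in NBT3L TCM (-0.45 without SJ7) gained a call.

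The media themselves were the contrast the genes were picked on, and the difference is given as a description. Since the making of NBT3L TCM is not given, this contrast cannot be told apart from one in base medium, serum or collection time. NB9464 TCM stood above NBT3L TCM by 2.71 ± 0.35 on the log2 scale for Klf9, 1.55 ± 0.090 for Tsc22d3, 1.34 ± 0.095 for Fkbp5, 0.75 ± 0.13 for Per1 and 0.66 ± 0.086 for Dusp1. The lowest of the NB9464 TCM libraries was above the highest of the NBT3L TCM libraries for each of these. How many of all genes are separated in this way, with 2 libraries per group, was not counted. Nr3c1 differed by 0.01 ± 0.096, with a 95% interval from -0.18 to 0.20, and its libraries overlapped. For Klf9, leaving out SJ5 gave 3.35 and leaving out SJ6 gave 2.26.

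In libraries with R788 the same contrast came out larger for every member. Klf9 was 10.6-fold higher with NB9464 TCM (log2 difference 3.41 ± 0.36), Fkbp5 5.19-fold (2.38 ± 0.096) and Tsc22d3 3.87-fold (1.95 ± 0.088). Per1 was 2.29-fold higher (1.20 ± 0.13), Dusp1 1.94-fold (0.95 ± 0.088) and Nr3c1 1.14-fold (0.19 ± 0.096). The libraries of these genes did not overlap between the media with R788. With 2 libraries per group and genes chosen on this contrast, that alone says little. The share of all genes without overlap was not counted. The gain, which is also the difference between the responses to R788 in the media, was 1.04 ± 0.13 for Fkbp5, 0.70 ± 0.50 for Klf9, 0.45 ± 0.18 for Per1, 0.41 ± 0.13 for Tsc22d3, 0.29 ± 0.12 for Dusp1 and 0.18 ± 0.14 for Nr3c1. That of Klf9 was 0.060 without SJ5, 0.29 without SJ12, 1.15 without SJ6 and 1.25 without SJ11. Over all genes tested, 9.40% were called between the media without R788 (3.69% higher and 5.72% lower with NB9464 TCM), 9.62% with R788 (3.53% higher and 6.09% lower), and 0.706% for the difference between these (0.283% higher and 0.424% lower). These shares stand beside the members as background only, since the choice used these contrasts.

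**Figure D4:**
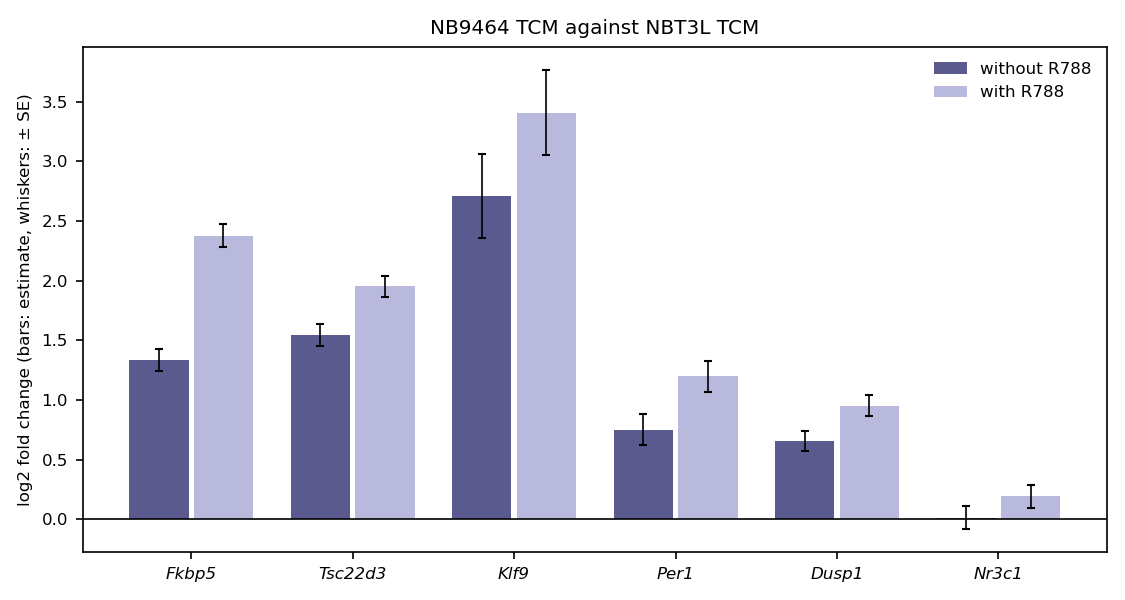
DESeq2 log2 fold changes (bars, y axis) with SE (whiskers) of NB9464 TCM against NBT3L TCM for the 6 genes, without and with R788, 2 libraries per group. The bars of Klf9 are 2.71 and 3.41 high, those of Fkbp5 1.34 and 2.38, and Nr3c1 lies at 0.01 without R788.

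Other genes that glucocorticoids are known to induce did not share one direction between the media. This list and those below were made with earlier results of these data known. Their counts and p-values are therefore not independent of these data. Of a list of 30, 29 were tested (Rasd1 had too few reads), and 4 were higher and 6 lower with NB9464 TCM than with NBT3L TCM by DESeq2, with a median log2 fold change of 0.08 against -0.0014 over all genes. The 3 largest rises were Hif3a, a hypoxia-inducible factor subunit (2.46 ± 0.56, adjusted p = 0.000267), Mertk, the receptor for engulfing apoptotic cells (1.20 ± 0.09, adjusted p = 7.80e-36), and Cd163, the hemoglobin scavenger receptor (0.82 ± 0.16, adjusted p = 4.01e-06). The fourth was Sgk1, a kinase that glucocorticoids induce in many tissues (0.35, named after its values were seen). The 3 largest falls were Txnip, which binds thioredoxin (-0.49 ± 0.06, adjusted p = 3.00e-14), Sesn1, a brake on mTORC1 (-0.32 ± 0.10, adjusted p = 0.0129), and Cdkn1a, the cell cycle inhibitor p21 (-0.30 ± 0.07, adjusted p = 0.000494). Hif3a had 181 and 118 normalized counts with NB9464 TCM and 39.6 and 15.1 with NBT3L TCM. Its call was lost without SJ3 or SJ6, with adjusted p up to 0.0583, and that of Sesn1 in 5 alternatives (edgeR, only the libraries compared, and without SJ3, SJ4 or SJ6, adjusted p up to 0.364). The count of rises was 2 without SJ3.

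With R788, 6 of the 29 were higher and 4 lower with NB9464 TCM than with NBT3L TCM, with a median of 0.09 against -0.01 over all genes. Of all genes tested, 3.53% were called higher and 6.09% lower. Hif3a (2.65 ± 0.55, adjusted p = 4.33e-05), Mertk (1.28 ± 0.09, adjusted p = 2.30e-42) and Tnfaip3, the NF-kB inhibitor A20 (0.56 ± 0.09, adjusted p = 8.69e-09), rose most. Ddit4, an mTORC1 inhibitor (-0.57 ± 0.20, adjusted p = 0.0387), Txnip (-0.51 ± 0.06, adjusted p = 3.05e-15) and Sesn1 (-0.27 ± 0.10, adjusted p = 0.0435) fell most, by DESeq2. The contrasts without and with R788 share no library. They had 6 called genes of the list in common, all in the same direction, which is 60.0% of either list, against 813 over all genes, 53.1% of those called without R788 and 51.9% of those called with it. The calls of Ddit4 and Sesn1 did not last: 13 alternatives lost Ddit4 (edgeR, only the libraries compared, counts divided by 2 and without any 1 library other than SJ7 and SJ8, adjusted p up to 0.296) and 9 lost Sesn1 (edgeR, only the libraries compared and without SJ1, SJ2, SJ3, SJ4, SJ9, SJ11 or SJ12, up to 0.485), and the count of falls was 1 without SJ11 or by edgeR and 2 in a fit of only the libraries compared or without SJ1, SJ2, SJ3, SJ4, SJ9, SJ10 or SJ12.

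Against NS, the list went both ways in either TCM. NB9464 TCM raised 11 of the 29 genes and lowered 8, and NBT3L TCM raised 8 and lowered 10, with medians of 0.16 and -0.27 where all genes had 0.02 and 0.00. Over all genes tested, NB9464 TCM raised 17.2% and lowered 16.9%, and NBT3L TCM raised 18.0% and lowered 17.3%. Irak3, an inhibitor of Toll-like receptor signaling, rose 5.27-fold with NB9464 TCM and 5.39-fold with NBT3L TCM, and Tnfaip3 rose 3.75-fold and 3.34-fold. Hif3a had no count in either NS library and was at least 52.8-fold higher with NB9464 TCM and at least 9.67-fold higher with NBT3L TCM, set against 3 counts per library. Rgs2, which curbs G protein signaling, fell 12.5-fold and 11.5-fold, from 4225 and 4497 normalized counts in NS to 383 and 314 with NB9464 TCM and 355 and 400 with NBT3L TCM. Cdkn1c, a cell cycle inhibitor, fell 4.01-fold and 3.16-fold, the latter not called without SJ1, SJ2 or SJ6. Anxa1, which encodes the anti-inflammatory annexin A1, fell 2.72-fold with NB9464 TCM, and Lpin1, a phosphatidate phosphatase, 2.32-fold with NBT3L TCM.

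R788 alone raised 13 of the 29 genes and lowered 7, with a median of 0.30 (0.31 without Hif3a, which was at 0 in both groups). Over all genes tested it raised 11.6% and lowered 15.0%. Ddit4 rose 2.53-fold, Cebpd, a transcription factor of the acute phase, 2.33-fold and Cd163 1.94-fold. Cdkn1c fell 3.85-fold, Rgs2 2.13-fold and Zfp36, which speeds the decay of cytokine mRNAs, 1.86-fold. Without SJ8 the counts were 12 and 6, and the log2 fold changes were 1.33 for Ddit4, 1.25 for Cebpd, 0.96 for Cd163, -1.04 for Rgs2 and -0.86 for Zfp36, all still called. Cdkn1c had -1.23 and was not called without SJ8 or SJ1 (adjusted p up to 0.0555). In NB9464 TCM, R788 raised 10 and lowered 3, against 5.79% raised and 8.70% lowered of all genes tested. Sesn1 (1.67-fold), Ddit4 (1.58-fold) and Glul, glutamine synthetase (1.43-fold), rose most, and Anxa1 (1.41-fold), Cd163 (by 0.49 on the log2 scale) and Zfp36 (1.18-fold) fell. In NBT3L TCM, R788 raised 8 and lowered 3, against 5.33% raised and 7.24% lowered of all genes tested. Ddit4 (1.98-fold), Sesn1 (1.62-fold) and Rgs2 (by 0.58 on the log2 scale) rose most, and Anxa1 (1.49-fold), Tnfaip3 (1.48-fold) and Cdkn1a (1.34-fold) fell. Single libraries moved these counts: 6 rose in NB9464 TCM without SJ4, 1 fell without SJ10 and 5 fell without SJ7 or SJ8, and 4 rose in NBT3L TCM without SJ5 or SJ12. In NB9464 TCM, Ddit4 lost its call in a fit of only the libraries compared and without SJ4 or SJ9 (adjusted p up to 0.179), Cd163 without SJ3, SJ9 or SJ10 (up to 0.207) and Zfp36 by edgeR and without SJ4, SJ5, SJ6, SJ10, SJ11 or SJ12 (up to 0.382), and Rgs2 in NBT3L TCM in 2, without SJ5 or SJ12 (up to 0.0789).

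Set against no TCM, the response to R788 was called different for 12 genes of the list in NB9464 TCM, 7 higher and 5 lower, and for 10 in NBT3L TCM, 4 higher and 6 lower. Over all genes tested the shares were 6.22% higher and 6.26% lower in NB9464 TCM, and 5.17% and 4.96% in NBT3L TCM. Between the TCM they were 0.283% higher and 0.424% lower. Rgs2 (1.47 ± 0.19 and 1.67 ± 0.19) and Zfp36 (0.66 ± 0.12 and 0.68 ± 0.12) had higher responses in each TCM than without it, and Cebpd (-0.92 ± 0.10 and -0.98 ± 0.10) and Cd163 (-1.44 ± 0.22 and -0.70 ± 0.22) lower ones. Cd163 in NBT3L TCM lost its call without SJ2, SJ5 or SJ11 (adjusted p up to 0.143). Between the 2 TCM, only Nfkbia, the NF-kB inhibitor, was called (0.26 ± 0.07, DESeq2 adjusted p = 0.0270), and it was lost by edgeR and without SJ3, SJ5, SJ6, SJ9, SJ10, SJ11 or SJ12 (up to 0.321). The calls of Rgs2, Zfp36, Cebpd and Cd163 held without SJ8 in both TCM. Without SJ8, 4 responses were higher in NB9464 TCM than without TCM, as also without SJ2, SJ3, SJ9 or SJ10, and 3 were lower without SJ2 or SJ9 and by edgeR or in a fit of only the libraries compared. In NBT3L TCM, 2 were higher without SJ1, SJ5 or SJ11 and 3 lower without SJ2 or SJ11. Between the TCM the number higher was 0 by edgeR and without SJ5, SJ6, SJ9, SJ10, SJ11 or SJ12, 2 without SJ1 or SJ2, 4 without SJ7 or SJ8 and 4 in a fit of only the libraries compared, and 1 was lower without SJ7 or SJ8 and with TMM scaling.

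Most of a list of cytokine and enzyme genes that glucocorticoids repress were lower with NB9464 TCM than with NBT3L TCM. The list was made with earlier results of these data known, so its counts and p-values are not independent of them. Of 12 such genes, 11 were tested (Csf2 had too few reads), and 9 were lower and none higher, with a median log2 fold change of -0.62 (DESeq2). Of all genes tested, 5.72% were lower and 3.69% higher. Il1b had 965 and 1123 normalized counts with NB9464 TCM and 9275 and 9335 with NBT3L TCM, an 8.91-fold difference (-3.16 ± 0.10, adjusted p = 8.26e-216). Il1a was 2.55-fold lower and Ptgs2, the cyclooxygenase that makes prostaglandins, 2.45-fold lower. The genes not called, Nos2 and Il12b, had -0.19 and -0.11. With R788, 6 were lower and 2 higher, against 6.09% lower and 3.53% higher of all genes tested. Il1b was 8.30-fold lower, and Il6 and Cxcl10 2.24-fold lower each, while Il12b was 2.43-fold higher (725 and 744 normalized counts with NB9464 TCM, 308 and 297 with NBT3L TCM) and Ccl3 1.14-fold higher. Ccl3 lost its call by edgeR and without SJ9, SJ10, SJ11 or SJ12 (adjusted p up to 0.190), and Cxcl10 in a fit of only the libraries compared and without SJ10 (up to 0.185). Both contrasts called 7 of these genes, 6 of them in the same direction. These 7 are 77.8% of those called without R788 and 87.5% of those called with it, against 53.1% and 51.9% over all genes.

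Against NS, 10 of the 11 repressed genes rose and 1, Cxcl10, fell with NB9464 TCM, and 10 rose with NBT3L TCM, with medians of 3.87 and 4.85. Of all genes tested, 17.2% rose and 16.9% fell with NB9464 TCM, and 18.0% and 17.3% with NBT3L TCM. Il1a went from 1.88 and 11.4 normalized counts in NS to 1816 and 1629 with NB9464 TCM and 4446 and 4322 with NBT3L TCM. Il6 had 0 and 3.79 in NS, 259 and 327 with NB9464 TCM and 710 and 671 with NBT3L TCM. Il12b had 5.64 and 0 in NS, and between 593 and 702 with either TCM. R788 lowered 8 of the 11 in NB9464 TCM, 10 in NBT3L TCM and 7 without TCM, and it raised none. Over all genes tested it lowered 8.70%, 7.24% and 15.0% and raised 5.79%, 5.33% and 11.6% in these media. Ccl2, the monocyte chemokine, fell 6.10-fold, 4.58-fold and 7.19-fold in these media, and Ccl4 fell 2.89-fold, 3.24-fold and 5.63-fold. Cxcl10 fell 4.07-fold in NB9464 TCM and 4.27-fold in NBT3L TCM. Without SJ8, 6 fell without TCM, and the log2 fold changes were -2.66 for Ccl2 and -2.27 for Ccl4, both still called. The gene lost was Il12b, which had no count in either R788 library, and its call was also lost by edgeR, with counts divided by 2 and without SJ1 or SJ7. The response to R788 differed from that without TCM in 6 genes for either TCM, 5 higher and 1 lower in NB9464 TCM and 4 higher and 2 lower in NBT3L TCM. Over all genes tested the shares were 6.22% higher and 6.26% lower in NB9464 TCM, and 5.17% and 4.96% in NBT3L TCM. Between the TCM they were 0.283% higher and 0.424% lower. Il1b had lower responses (-1.09 ± 0.23 and -1.19 ± 0.22), and Ccl4 higher ones (0.96 ± 0.15 and 0.79 ± 0.15), which without SJ8 were -1.14 and -1.25 for Il1b and 0.73 and 0.57 for Ccl4, all still called. In NB9464 TCM 3 were higher without SJ3, SJ8 or SJ9, by edgeR and with counts divided by 2. In NBT3L TCM 2 were higher without SJ2, and 1 was lower without SJ1, SJ8 or SJ12, by edgeR and with counts divided by 2. Between the TCM, the responses of Ccl3 (0.51 ± 0.08), Il1a (0.67 ± 0.17) and Il12b (1.39 ± 0.29) were higher in NB9464 TCM, where Il1a lost its call by edgeR and without SJ4, SJ5, SJ6, SJ9, SJ11 or SJ12 (adjusted p up to 0.307) and Il12b by edgeR (0.180). The number higher was 1 without SJ4 or SJ6 and by edgeR, and 1 was lower without SJ1, SJ2, SJ7 or SJ8, with TMM scaling, with counts divided by 2 and in a fit of only the libraries compared.

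**Figure D5:**
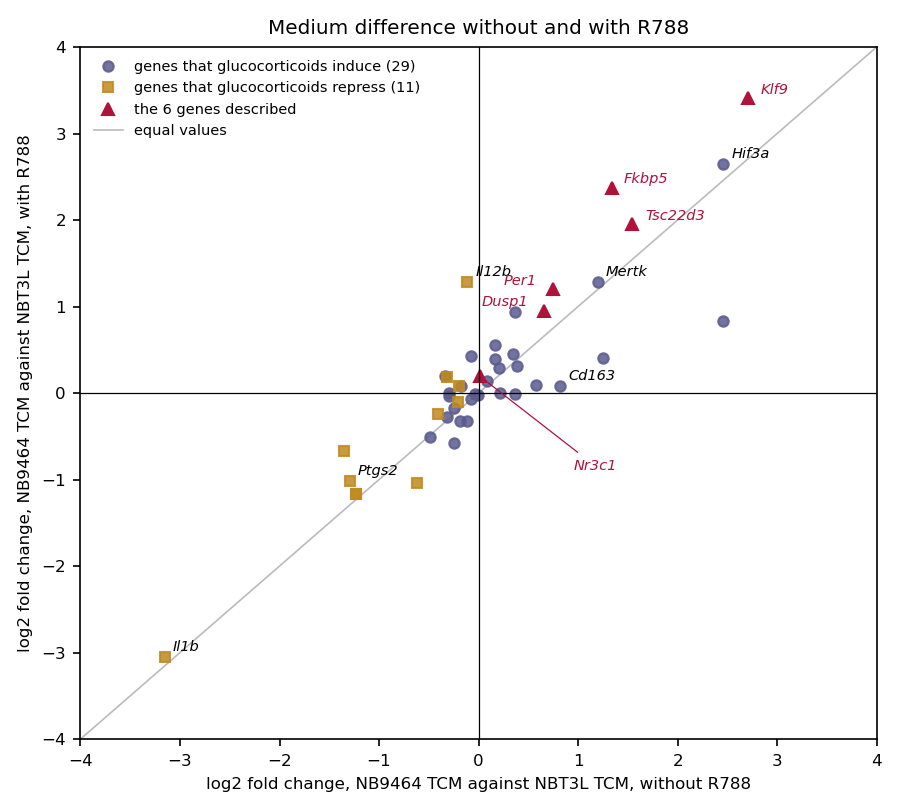
DESeq2 log2 fold changes of NB9464 TCM against NBT3L TCM without R788 (x axis) and with R788 (y axis) for 29 other genes that glucocorticoids induce, 11 that they repress and the 6 genes described, which were chosen on these contrasts, with a line of equal values. Il1b lies at -3.16 and -3.05, Hif3a at 2.46 and 2.65, and most of the 29 lie near 0 on both axes.

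The genes that activate the steroid and hold the receptor were a list of 15, of which 13 were tested (Hsd11b2 and Nr3c2 had too few reads). Hsd11b1, the enzyme that turns inactive 11-keto steroid back into active glucocorticoid, had 128 and 187 normalized counts in NS, 1247 and 1325 with NB9464 TCM, and 1500 and 1843 with NBT3L TCM. These are rises of 8.18-fold (3.03 ± 0.16, DESeq2 adjusted p = 9.26e-74) and 10.6-fold (3.41 ± 0.16, adjusted p = 2.24e-93). R788 raised it 2.61-fold without TCM and 1.83-fold in NB9464 TCM, and in NBT3L TCM it had 0.26 and was not called. Between the media it differed by -0.38 without R788 and 0.23 with R788, neither called. Hsp90aa1, the inducible HSP90, rose 1.48-fold with NB9464 TCM and 1.70-fold with NBT3L TCM and fell 1.81-fold with R788 alone, 1.33-fold with R788 in NB9464 TCM and 1.36-fold in NBT3L TCM. Fkbp4, the co-chaperone that competes with FKBP5, fell 1.53-fold with R788 alone and had 0.22 and 0.05 between the media without and with R788, neither called. Without SJ8, the log2 fold changes with R788 alone were 1.37 for Hsd11b1, -1.07 for Hsp90aa1 and -0.60 for Fkbp4, all still called. The coactivator gene Ncoa3 fell 1.98-fold and 2.05-fold with the TCM.

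Over this list, 6 rose and 2 fell with NB9464 TCM, 7 rose and 3 fell with NBT3L TCM, and 3 rose and 8 fell with R788 alone (1 and 8 without SJ8, and 1 rose without SJ2). Of all genes tested, 17.2% rose and 16.9% fell with NB9464 TCM, 18.0% and 17.3% with NBT3L TCM, and 11.6% and 15.0% with R788 alone. Shares were 5.79% and 8.70% with R788 in NB9464 TCM and 5.33% and 7.24% in NBT3L TCM. Between the media they were 3.69% and 5.72%, and 3.53% and 6.09% with R788. For the responses against no TCM they were 6.22% and 6.26% in NB9464 TCM and 5.17% and 4.96% in NBT3L TCM. With NBT3L TCM 1 fell without SJ5. With R788 1 rose and 3 fell in NB9464 TCM, where 3 rose without SJ3, and 4 fell in NBT3L TCM, where 2 fell without SJ6, SJ11 or SJ12 and by edgeR, and 2 rose in a fit of only the libraries compared. Between the media 3 were lower with NB9464 TCM and none higher, both without and with R788, and Hspa8, the constitutive HSP70, was lower in both (1.24-fold and 1.15-fold). The other calls were Bag1 and Hsp90ab1 without R788 and Hsp90ab1 and Stip1 with it, by -0.26 and -0.17 without R788 and -0.22 and -0.18 with it on the log2 scale. Bag1 was lost without SJ3 or SJ6, Hsp90ab1 in 10 alternatives without R788 (edgeR, TMM scaling and without SJ2, SJ3, SJ5, SJ6, SJ9, SJ10, SJ11 or SJ12) and without SJ10, SJ11 or SJ12 with it, and Stip1 by edgeR and without any 1 library other than SJ3, SJ4, SJ7 and SJ8 (adjusted p up to 0.430 over these). For the responses to R788, 5 were higher and 1 lower in NB9464 TCM than without TCM, 3 higher and 1 lower (Hsd11b1, -1.12 ± 0.22, and -1.11 without SJ8) in NBT3L TCM, and none differed between the TCM by DESeq2. In NB9464 TCM 3 were higher without SJ1, SJ3, SJ9 or SJ10, by edgeR and in a fit of only the libraries compared, and 0 were lower without SJ3 or SJ9. In NBT3L TCM 2 were lower without SJ7. Between the media without R788, 1 was lower without SJ3 or SJ6, 5 were lower without SJ7 or SJ8 and 1 was higher without SJ3 or SJ4, and with R788 1 was lower without SJ10, SJ11 or SJ12. A fit of only the libraries compared called 1 higher between the media with R788 and 1 higher for the difference between the TCM responses.

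Of 14 tested clock genes (Hlf had too few reads), 1 was higher and 2 lower between the media in either comparison, while R788 alone raised 9 and lowered none. Over all genes tested, R788 alone raised 11.6% and lowered 15.0%. Between the media 3.69% were higher and 5.72% lower, and 3.53% and 6.09% with R788. The shares of the other comparisons are those given for the receptor list. Without R788 the 2 falls between the media were 0 without SJ3, SJ4 or SJ6, by edgeR and in a fit of only the libraries compared, and 1 with counts divided by 2 or without SJ1, SJ2, SJ9, SJ10, SJ11 or SJ12, and the rise was lost without SJ6. With R788 1 was lower without SJ9, SJ11 or SJ12 and in a fit of only the libraries compared. Dbp, an output gene of the clock, rose 2.43-fold, Per3 2.10-fold and Per2 1.90-fold with R788 alone, when Per1 had -0.25. Without SJ8, 6 clock genes rose, Dbp had 1.38 and Per2 1.07 on the log2 scale and Per3 was not called (0.75), 5 rose without SJ2, and without SJ7 or SJ2 Per2 was not called (adjusted p up to 0.216). With NB9464 TCM, which raised Per1, 1 clock gene rose (Cry1, 1.94-fold) and 5 fell, led by Dbp (2.67-fold), Nr1d2 (2.55-fold) and Per3 (2.29-fold). The number that rose was 2 without SJ1, SJ7 or SJ8. With NBT3L TCM, Cry1 rose and 4 fell. In NB9464 TCM R788 raised 2 (1 without SJ4 or SJ10) and lowered 1, and in NBT3L TCM none of the 14 was called by DESeq2, while 1 rose without SJ6 and 3 in a fit of only the libraries compared. The responses to R788 were lower for 4 clock genes in either TCM than without TCM and higher for none. In NB9464 TCM this was 2 by edgeR, in a fit of only the libraries compared and without any 1 library other than SJ1, SJ4, SJ7 and SJ8, and in NBT3L TCM it was 2 without SJ2 or SJ12 and 1 without SJ5.

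Among the 9 other MAP kinase phosphatases, none was called between the media without R788, and 1 was with R788 (Dusp6, 1.32-fold higher, lost without SJ11), where Dusp1 stood above in both. Without SJ1, SJ2, SJ7 or SJ8 and in a fit of only the libraries compared, 1 was higher without R788 and 2 with it, and 1 was lower with R788 without SJ9. NB9464 TCM raised Dusp2 4.53-fold and Dusp16 2.12-fold and lowered 3, and NBT3L TCM raised Dusp2 2.78-fold and Dusp16 2.04-fold and lowered Dusp7 (2 with TMM scaling or in a fit of only the libraries compared). Of all genes tested, 17.2% rose and 16.9% fell with NB9464 TCM, and 18.0% and 17.3% with NBT3L TCM. Between the media 9.40% were called without R788 and 9.62% with it. R788 lowered 4 and raised Dusp6 without TCM (3 and 1 without SJ8), and lowered 6 in NB9464 TCM and 5 in NBT3L TCM. Over all genes tested it lowered 15.0%, 8.70% and 7.24% and raised 11.6%, 5.79% and 5.33% in these media. Dusp5 fell 2.73-fold (-1.25 on the log2 scale without SJ8), 1.92-fold and 2.02-fold in these media, the second of these not called without SJ4 or SJ10 (adjusted p up to 0.0952). Dusp6 rose by 0.31 ± 0.10 without TCM (not called without SJ2) but fell 1.73-fold in NB9464 TCM and 2.01-fold in NBT3L TCM, and its response differed from that without TCM by -1.11 ± 0.14 and -1.32 ± 0.14 (DESeq2 adjusted p = 7.08e-14 and 1.58e-19). Without SJ8 the values of Dusp6 were 0.32, -1.12 and -1.33, all still called. Dusp8 had no count with NBT3L TCM + R788 and was there at least 8.02-fold lower than with NBT3L TCM, set against 3 counts per library.

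Among 9 tested Kruppel-like factors (Klf15 had too few reads), Klf13 was higher with NB9464 TCM than with NBT3L TCM (by 0.58 on the log2 scale, and 1.71-fold with R788) and Klf10 was lower (1.34-fold, and 1.27-fold with R788). Klf16 was lower with R788 (1.38-fold), a call lost without SJ10, SJ11 or SJ12 (adjusted p up to 0.208), and that of Klf10 with R788 was lost without SJ9 or SJ12 (up to 0.123). Klf4, a factor of macrophage differentiation, fell 2.67-fold with NB9464 TCM and 3.21-fold with NBT3L TCM and rose 1.78-fold with R788 alone (also called without SJ8). NB9464 TCM raised 2 of the 9 and lowered 4, NBT3L TCM raised 1 (3 without SJ7 or SJ8 and in a fit of only the libraries compared) and lowered 4, and R788 alone raised 3 and lowered 3, as it did without SJ8. In NB9464 TCM R788 raised 2 (1 without SJ3 or SJ10) and lowered 3 (1 without SJ3 or SJ9), and in NBT3L TCM it raised 1 (0 without SJ5, SJ6, SJ11 or SJ12) and lowered 3. Of all genes tested, 17.2% rose and 16.9% fell with NB9464 TCM, 18.0% and 17.3% with NBT3L TCM, and 11.6% and 15.0% with R788 alone. With R788 in NB9464 TCM 5.79% rose and 8.70% fell, and in NBT3L TCM 5.33% and 7.24%. Between the media 9.40% were called without R788 and 9.62% with it. The other TSC22 family genes, Tsc22d1, Tsc22d2 and Tsc22d4, were not called between the media without R788, and with R788 Tsc22d1 was 1.69-fold lower with NB9464 TCM (lost without SJ12, adjusted p = 0.0621). All 3 rose with R788 alone (Tsc22d1 2.01-fold), and without SJ8 only Tsc22d1 did (0.82 on the log2 scale). Tsc22d2 (1.58-fold and 1.39-fold) and Tsc22d4 (1.25-fold and 1.35-fold) rose with NB9464 TCM and NBT3L TCM, where Tsc22d3 fell, and Tsc22d2 with NBT3L TCM was not called without SJ2 (adjusted p = 0.0840).

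Across the 12 libraries, the genes whose profile was most like that of each of the leading 3 were found by Pearson correlation of log2(normalized count + 1) over 10704 genes with a mean of at least 100. The 12 points are 6 groups of 2 and share their treatments, so r is given as a description. Fkbp5 was closest to Cep85 (r = 0.951), Chil3 (0.923), Ms4a6b (0.919), Mthfd2 (0.890) and Rnf103 (0.877). Cep85 encodes a centrosomal protein, Chil3 a chitinase-like protein of macrophages, and Mthfd2 a mitochondrial enzyme of folate metabolism. Among the genes closest to Tsc22d3 were Pck2 (0.978), mitochondrial phosphoenolpyruvate carboxykinase, Parvg (0.975), Cebpg (0.974) and Ensa (0.971). Klf9 was closest to Gars (0.960) and Yars (0.945), which encode glycyl and tyrosyl tRNA synthetases, Rnf169 (0.940), Dedd2 (0.938) and Nars (0.933), asparaginyl tRNA synthetase. None of the members was among the 5 closest of Fkbp5, Tsc22d3 or Klf9. Klf9 ranked 14th for Fkbp5 (0.845) and Fkbp5 34th for Klf9, while Tsc22d3 ranked 251st for Fkbp5 (0.609). Pck2 had means of 3790 normalized counts in NS, 3014 with NB9464 TCM, 951 with NBT3L TCM and 5166 with R788, and Chil3 had 716, 1194, 596 and 507.

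Exons of Irak3, Cebpd, Zfp36, Txnip, Cdkn1a, Cdkn1c, Il1a, Il1b, Cxcl10, Ncoa3, Dbp, Klf7 and Dusp8, among others named, run over exons annotated on the other strand, and the doubt stated for Dusp1 holds for them too.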

How the data were processed

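Polyadenylated RNA of 12 BMDM libraries was sequenced. The deposited table holds raw counts per gene (54232 Ensembl genes), which the authors made with the bcbio pipeline on mm10. The labels name STAR 2.6.1d, Salmon 1.4.0, SAMtools 1.9, Picard 2.26 and MultiQC 1.11. How reads on either strand and multimapping reads were counted is not given in the sources used here. Even numbers were unusually common among counts from 1 to 40, so both mates of a pair may have been counted, and a fit of counts divided by 2 stands among the alternatives.

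Groups came from the labels. The 16281 genes that reached 10 counts in 2 libraries or more were fitted in 1 model of the 6 group means over all 12 libraries with DESeq2 1.42.0 in R 4.3.3 (median-of-ratios scaling, Wald test, Benjamini-Hochberg adjustment, threshold 0.05). The scripts were tested on simulated data. Alternatives were edgeR 4.0.16 (quasi-likelihood with TMM factors), DESeq2 with TMM factors, a fit without the filter, one of only the libraries compared, and leaving out each library in turn, where the lone library left in a group is assumed to vary like the others. TPM was computed from counts and gene lengths. Symbols came from GENCODE release 21 of the mouse.

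The members and gene lists were chosen with earlier results of these data known. Named are the 6 members in every comparison, up to 3 called genes with the largest rise and 3 with the largest fall per list and comparison, and the 5 closest genes by correlation, of which 1 is not reported here. Libraries SJ1 and SJ2 are NS, SJ3 and SJ4 had NB9464 TCM, SJ5 and SJ6 NBT3L TCM, SJ7 and SJ8 R788 alone, SJ9 and SJ10 the first TCM with R788, and SJ11 and SJ12 the second with R788.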

Additional observations from a re-analysis of the deposited data

Results flagged for a closer look

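The response to R788 in TCM was called different from that without TCM for Tsc22d3, Klf9 and Dusp1. These calls are not independent of the choice of the genes, which used the TCM libraries. For Fkbp5 and Per1 the libraries with R788 lay above those without it in NB9464 TCM and below them in NBT3L TCM, which was not tested. Klf9 (0.33 and -0.36) and Nr3c1 (0.06 and -0.12) also had opposite signs in the 2 TCM, none of them called. The response of Fkbp5 was higher in NB9464 TCM than without TCM by 1.11 on the log2 scale and higher than in NBT3L TCM by 1.04. Its libraries with R788 lay above those without R788 in NB9464 TCM and below them in NBT3L TCM and without TCM. These differences were not tested because the gene was chosen on them. For Tsc22d3 the difference from the response without TCM was -0.35 in NB9464 TCM and -0.76 in NBT3L TCM, both called by the DESeq2 interaction test. The first of these was lost in 7 alternatives. For Klf9 in NBT3L TCM it was -1.39, a call lost in 11 alternatives, and for Dusp1 in NB9464 TCM 0.63, again by the interaction test. With R788, Per1 had 0.13 in NB9464 TCM and -0.31 in NBT3L TCM, neither called, and the difference of 0.45 was not tested. Its differences from the response without TCM were tested and not called.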

How the results depend on the processing

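No paired analysis was possible because the labels give each library its own number and no group shares one with another. In a fit of only the libraries compared, the log2 value was -0.22 for Tsc22d3 in NB9464 TCM against NS (call lost), 1.97 for its difference between media with R788, -1.40 for the Klf9 response in NBT3L TCM against no TCM (lost), and 0.28 and -0.31 for Per1 in NBT3L TCM against NS and with R788 (both gained). There, 3678 genes were called for R788 in NBT3L TCM, in a fit for which DESeq2 replaced its parametric dispersion trend by a local one, and 271 for the difference between the TCM responses, where edgeR called 21. With edgeR the responses against no TCM were -0.35 for Tsc22d3 in NB9464 TCM and -1.38 for Klf9 in NBT3L TCM (both lost), the latter also -1.38 with counts divided by 2. TMM scaling gave 0.35 for the Dusp1 response in NBT3L TCM and -0.23 for Nr3c1 in NBT3L TCM against NS (both gained). Of the 29 induced genes, the falls between media with R788 were 1 by edgeR and 2 with only the libraries compared, the lower responses in NB9464 TCM 3 by either, and between the TCM responses 0 and 4 were higher, and 1 lower with TMM scaling.

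Leaving out 1 library in turn turned the sign of the Fkbp5 response in NBT3L TCM against no TCM (range -0.0001 to 0.14), of Klf9 with R788 in NBT3L TCM (-0.92 to 0.27, also 0.044), of the Per1 response in NBT3L TCM (-0.25 to 0.15, also 0.042), of Nr3c1 with R788 in NB9464 TCM (-0.031 to 0.15) and of Nr3c1 between media (-0.082 to 0.099, also -0.011). Ranges against NS were -0.25 to -0.18 for Tsc22d3 in NB9464 TCM, -1.84 to -0.75 for Klf9 in NBT3L TCM, 0.81 to 1.29 for Klf9 with R788, 0.17 to 0.37 for Per1 in NBT3L TCM, -0.47 to -0.062 for Per1 with R788, and -0.29 to -0.11, -0.28 to -0.14 and 0.10 to 0.33 for Nr3c1 in NB9464 TCM, NBT3L TCM and R788. Per1 with R788 in NBT3L TCM ranged from -0.41 to -0.21. Responses against no TCM ranged from -0.42 to -0.29 for Tsc22d3 and 0.19 to 0.60 for Per1 in NB9464 TCM, and in NBT3L TCM from -1.95 to -0.76 for Klf9, 0.27 to 0.41 for Dusp1 and -0.45 to -0.23 for Nr3c1. Numbers of genes called were 1419 to 2876 for R788 in NB9464 TCM, 1172 to 2558 in NBT3L TCM, 795 to 2008 between media, 851 to 1977 with R788, 1341 to 2967 and 1034 to 2585 for the responses in NB9464 TCM and NBT3L TCM against no TCM, and 46 to 233 between the TCM. Of the 29 induced genes, R788 raised 6 to 12 and lowered 1 to 5 in NB9464 TCM and raised 4 to 10 in NBT3L TCM. Between media 2 to 6 rose, and with R788 1 to 4 fell. Responses against no TCM were higher for 4 to 8 and lower for 3 to 5 in NB9464 TCM, higher for 2 to 6 and lower for 3 to 6 in NBT3L TCM, and between the TCM higher for 0 to 4 and lower for 0 to 1. The cause was not tested. Klf9, with the fewest reads, is the member whose values depend most on single libraries.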
